A study of Mus musculus with 12 samples.

Results

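Expression of 50 cytochrome P450 genes was followed in liver RNA of mice at the end of carbon tetrachloride (CCl4) injury and after recovery with or without exosomes. The genes were chosen by name: 79 of the 21936 genes in the deposited table carried a Cyp symbol of the usual form and stood outside the Cyp2c subfamily, Cyp2e1 and the bile acid enzymes Cyp7a1, Cyp7b1, Cyp8b1 and Cyp27a1. Of these, 50 had at least 10 reads in at least 3 of 9 libraries and 29 did not, 10 of the latter having no read in any library. Male C57BL/6 mice, 6 weeks old on arrival, all received CCl4 at 1 mL/kg into the peritoneum, with 2 injections per week for 8 weeks. The liver fibrosis group (LFG) was sacrificed then. For a further 4 weeks, 2 injections per week went into the tail vein of the others: 200 µL of saline buffer in the regression group (REG), and the same volume with 250 µg of exosomes from human adipose mesenchymal stem cells in the hADMSCs-Exo group. Each group had 3 libraries, and a cell-treated group of 3 samples was not analysed here. The deposited table heads the hADMSCs-Exo columns MSC_E, which was read as the exosome samples and not as the cell-treated ones. LFG differs from the other groups in age and in time since CCl4 as well as in recovery, and these cannot be told apart. The labels do not say that the libraries of a group came from separate animals, so p-values measure the spread between these samples.

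Cytochrome P450 enzymes are haem proteins that insert oxygen into drugs, fatty acids, steroids and vitamins. Most hepatic forms sit in the endoplasmic reticulum of hepatocytes and take electrons from P450 oxidoreductase (Por). Their genes are switched by ligand-activated factors, such as the aryl hydrocarbon receptor (AhR), CAR, PXR and PPAR-alpha, and in mice several differ between the sexes. CCl4 is turned into its toxic radical by P450 enzymes, chiefly Cyp2e1, which is not among the genes described here.

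The libraries held 13837445 to 19840917 counts, of which the 50 genes took between 1.06% (LFG replicate 1) and 1.56% (LFG replicate 3). Values per library are given as CPM, counts brought to a common library size with TMM scaling. The hepatocyte markers were abundant in every library, with a summed level of 9 genes from 88700 to 182100 CPM. LFG replicate 3 stood apart from the other LFG libraries: the summed level of 10 markers of hepatic stellate cells and myofibroblasts was 1461, 985 and 71.5 CPM in LFG replicates 1, 2 and 3, against 225 to 382 CPM in REG and 88.8 to 247 CPM in hADMSCs-Exo. Its summed macrophage level was 196 CPM, where the other 8 libraries held 649 to 2090 CPM. The library labelled LFG 3 had a lower summed level of the stellate cell markers than any library of the recovered groups, and the counts of calls and the fold changes of named genes against LFG are given with and without it, the latter together after the sex-biased genes. Reads of Y-linked genes (Ddx3y, Eif2s3y, Kdm5d and Uty) were present in all 9 libraries at 8.94 CPM or more. In bulk tissue, fewer cells of a type and less RNA per cell cannot be told apart.

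Levels of different genes can be compared per transcript length, for which the deposited FPKM was used. Cyp3a11, the main mouse counterpart of human CYP3A4 and a PXR target, led with 1013 ± 171 FPKM in LFG, 1067 ± 108 in REG and 994 ± 27.1 in hADMSCs-Exo (mean ± SD, n = 3). It made up between 13.6% (LFG replicate 3) and 34.7% (LFG replicate 1) of the FPKM of the 50 genes. Cyp2d26, Cyp2a5, the coumarin hydroxylase, Cyp1a2, the AhR target that oxidises caffeine, and Cyp2d10 followed, with means over the 9 libraries of 568, 528, 413 and 363 FPKM. The order of these 4 genes by mean was not the same in the 3 groups, and Cyp2a5 measured 399 ± 390 FPKM in LFG. Together with Cyp3a11 they held from 57.9% (REG replicate 2) to 62.7% (hADMSCs-Exo replicate 3) of the summed FPKM. At the low end stood Cyp3a44, Cyp26c1, Cyp1b1, Cyp2d11 and Cyp2d12, each with a mean of at most 0.379 FPKM. Just inside the limit on reads were Cyp2d11 with 10 reads in 3 libraries, Cyp2b13 in 4, and Cyp2d12 and Cyp3a44 in 5, and just outside it were Cyp21a1, Cyp2s1 and Cyp3a57 in 2, and Cyp2j8 and Cyp2t4 in 1.

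**Figure D1:**
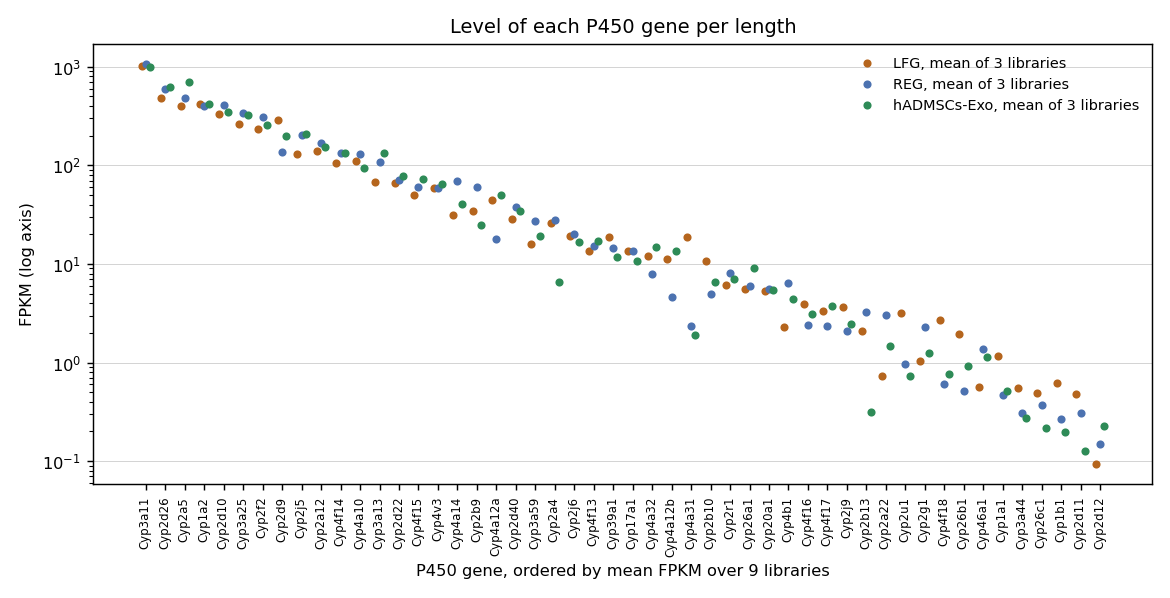
Level of each of the 50 P450 genes in FPKM on a log axis, ordered by the mean over 9 libraries, each point being the mean of the 3 libraries of a group. Cyp3a11 leads at 1024 FPKM, and group means separate most for low genes such as Cyp4a31 (18.6, 2.34 and 1.90 FPKM in LFG, REG and hADMSCs-Exo).

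The genes lie in clusters, with 10 members each on chromosomes 4 (Cyp2j, Cyp4a and Cyp4b1) and 7 (Cyp2a, Cyp2b, Cyp2f2, Cyp2g1 and Cyp2r1), 7 each on chromosomes 15 (Cyp2d) and 17 (mainly Cyp4f), and 5 on chromosome 5 (Cyp3a). All 50 positions equal those of the GENCODE annotation of GRCm38. Close relatives share sequence, which makes the split of their counts uncertain. Of all 75-base windows in the annotated transcripts, 41.3% of those of Cyp4a12b and 40.8% of those of Cyp4a12a recurred in the other gene of that pair. The share was 28.0% for Cyp4a32, 22.3% for Cyp2a5, 22.1% for Cyp2a4 and 22.2% for Cyp2d10, and it passed 10% for 13 genes in all, while 19 genes shared no window with another Cyp gene.

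P450 levels spread more between LFG libraries than genes at large did. The SD of log2 CPM within LFG had a median of 1.23 over the 50 genes against 0.466 over 12712 genes. The SD exceeded 1 for 30 of the 50 and for 2543 of the 12712. Within REG the medians were 0.363 and 0.231, and within hADMSCs-Exo 0.311 and 0.243, with 9 and 4 of the 50 genes above 1. Of the 12712 genes 319 and 492 were above 1 in these groups. LFG replicate 1 held the lowest of the 9 values for 24 genes. It also had the lowest summed level of the hepatocyte markers, at 88700 CPM where the other 8 libraries held 127100 to 182100 CPM, and the highest TMM factor (1.375, against 0.809 to 1.09), and their part in the P450 values was not tested. LFG replicate 3 held the highest value for 18 genes and the lowest for 11. REG replicate 1 held the highest value for 11 genes, most of the others' maxima lying in LFG.

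**Figure D2:**
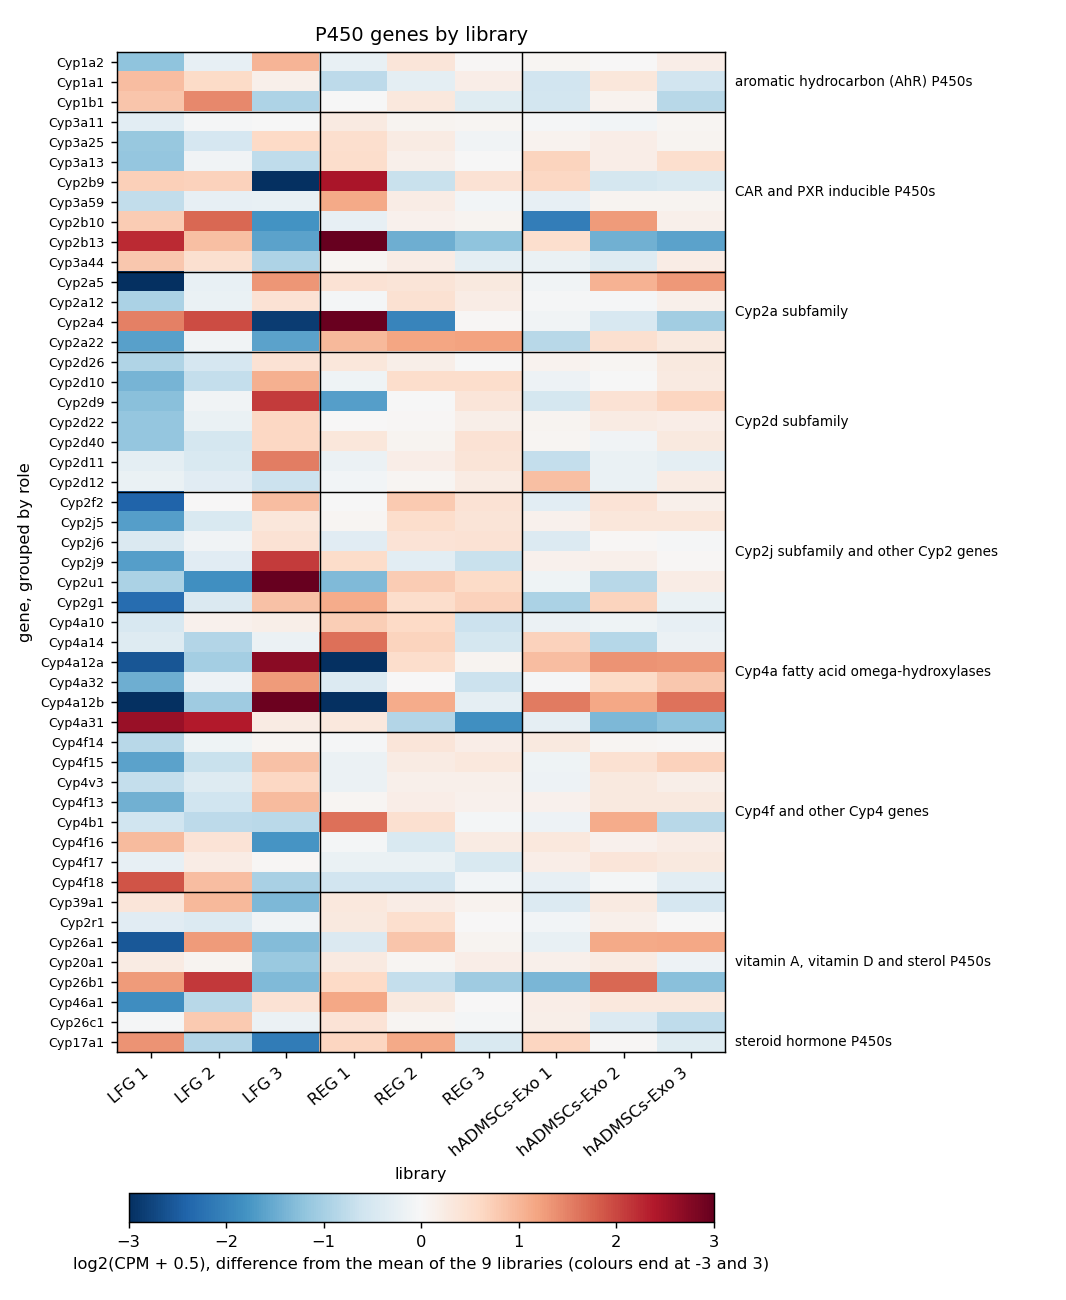
Each row is a P450 gene grouped by role, each column a library, and colour is log2(CPM + 0.5) minus the mean of the 9 libraries, ending at -3 and 3. The deepest colours are in LFG 1, LFG 3 and REG 1, which hold the lowest value of 24, the highest of 18 and the highest of 11 genes.

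Whether recovery, or exosomes during recovery, altered these genes was asked in 3 comparisons by edgeR's quasi-likelihood test over all genes, a call needing a Benjamini-Hochberg adjusted p under 0.05 and a log2 fold change of 1 or more in size. No member was called in any of them. In hADMSCs-Exo against REG the call went to 0 of 47 members tested, where 0.00811% of all tested genes were called. At an unadjusted p under 0.05 it was 2 higher (Cyp4f17 and Cyp4a32) and 1 lower (Cyp2a22), beside 5.34% and 4.69% of all genes. Their median log2 fold change was -0.09, against 0.01 for all genes. DESeq2 also called 0 of the 47 (0.543% of all genes).

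In hADMSCs-Exo against LFG 0 of 48 members were called (0.0% of all genes). At an unadjusted p under 0.05, Cyp3a13 was higher (2.3% of all genes) and Cyp4a31 lower (3.68%). With same-numbered libraries as pairs, though they share only a number, 4 members reached that limit, as did 5.72% of all genes. The median log2 fold change was 0.08 over the members and -0.06 over all genes, and with these pairs 0.35 and -0.01. DESeq2 called Cyp4a31 alone, among 0.48% of all genes.

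In REG against LFG 0 of 48 were called (0.0% of all genes). At an unadjusted p under 0.05, 6 members were higher (Cyp2a22, Cyp4b1, Cyp2r1, Cyp3a13, Cyp3a59 and Cyp4a14) and 1 lower (Cyp4a31), beside 4.62% and 6.7% of all genes. The share that was higher exceeded that of all genes, but the 7 members became 3 without REG replicate 1, 4 without REG replicate 2 or LFG replicate 1, and 27 without LFG replicate 3. Here the median log2 fold change was 0.26 over the members and -0.07 over all genes. DESeq2 called Cyp4a31, Cyp4b1 and Cyp2a22 (1.91% of all genes). The comparisons share libraries, so their values are not independent of each other.

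Counted by libraries that did not overlap, 5 of 47 members were separate between hADMSCs-Exo and REG (15.6% of all genes), with Cyp4f17, Cyp4a12a and Cyp4a12b higher and Cyp2a22 and Cyp3a11 lower. Between hADMSCs-Exo and LFG 3 of 48 were separate (12.3% of all genes), namely Cyp2r1, Cyp3a13 and Cyp4a31. Between REG and LFG 6 of 48 were, all higher in REG: Cyp2a22, Cyp2r1, Cyp3a11, Cyp3a13, Cyp3a59 and Cyp4b1 (19.0% of all genes). By this measure the members' share was below that of all genes in each comparison.

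**Figure D3:**
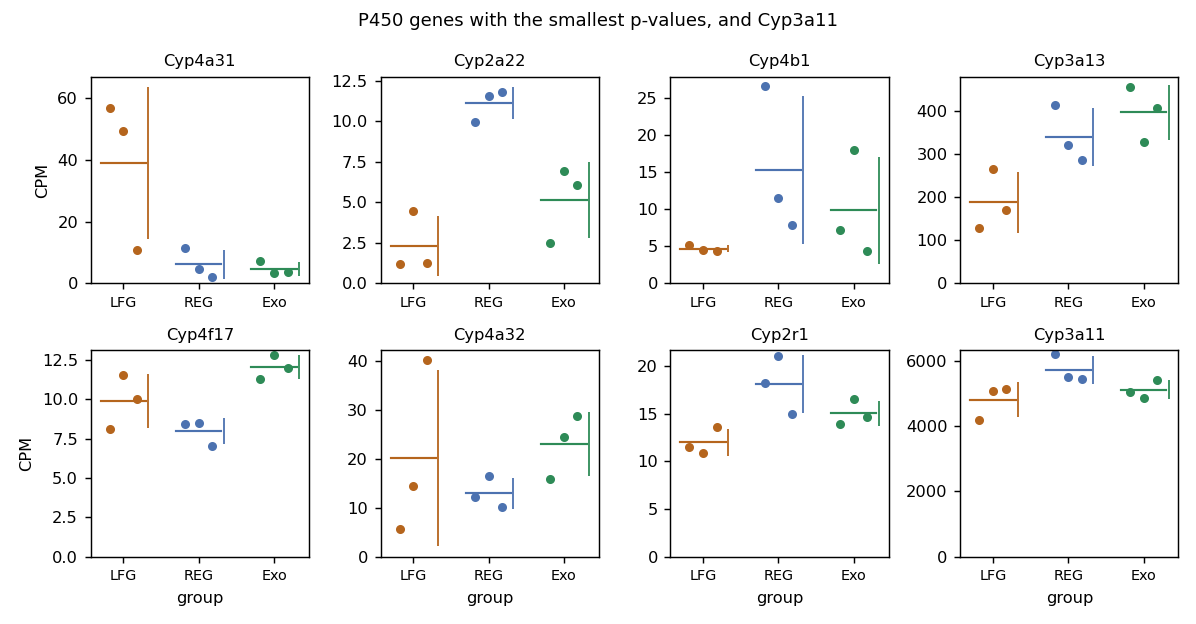
CPM of 8 P450 genes in every library, with LFG, REG and hADMSCs-Exo (Exo) on the x axis, replicates 1 to 3 from left to right as points, the mean as a line and the SD as a bar ending at 0 where it would pass below. Cyp4a31 stands at 56.8 and 49.1 CPM in LFG 1 and 2 and at 11.5 CPM or less elsewhere, and Cyp2a22 is separate in REG at 9.98 to 11.8 CPM.

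The Cyp4a genes encode omega-hydroxylases of fatty acids, several of them targets of PPAR-alpha. Cyp4a31 measured 56.8, 49.1 and 10.8 CPM in LFG replicates 1 to 3, 11.5, 4.72 and 2.18 CPM in REG, and 7.40, 3.25 and 3.65 CPM in hADMSCs-Exo. LFG replicates 1 and 2 were far above the rest, and LFG replicate 3 fell below REG replicate 1, so LFG was separate from hADMSCs-Exo but not from REG. Its log2 fold change was -3.04 ± 0.668 (SE) in hADMSCs-Exo against LFG (edgeR, adjusted p = 0.805) and -2.65 ± 0.787 in REG against LFG (edgeR, adjusted p = 0.357). The latter was -3.45 without REG replicate 1. The DESeq2 calls named above gave -3.03 and -2.65.

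Other Cyp4a genes had other patterns. Cyp4a14, a classic PPAR-alpha target, measured 80.2, 56.9 and 91.7 CPM in LFG, 330, 165 and 71.6 CPM in REG and 169, 57.3 and 91.6 CPM in hADMSCs-Exo. REG replicate 1 was the highest and the groups overlapped, with a log2 fold change of 1.33 ± 0.537 in REG against LFG (edgeR, adjusted p = 0.432), or 0.68 without REG replicate 1. Cyp4a32 measured 5.60, 14.5 and 40.2 CPM in LFG, 12.1, 16.5 and 10.2 CPM in REG and 15.9, 24.5 and 28.8 CPM in hADMSCs-Exo. Its hADMSCs-Exo libraries were above REG except for replicate 1, which lay just under REG replicate 2, and the log2 fold change was 0.83 ± 0.258 (edgeR, adjusted p = 0.407). Of the 6 Cyp4a genes tested, edgeR called none with all 6 libraries in any comparison and DESeq2 called Cyp4a31, and 3 were higher and 3 lower in hADMSCs-Exo than in REG.

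Cyp2a22 was the member whose REG libraries stood most clearly apart. It measured 1.22, 4.47 and 1.25 CPM in LFG, 9.98, 11.6 and 11.8 CPM in REG and 2.49, 6.93 and 6.05 CPM in hADMSCs-Exo. All 3 REG libraries were above all 6 others, and LFG and hADMSCs-Exo overlapped. The log2 fold change was 2.27 ± 0.546 in REG against LFG (edgeR, adjusted p = 0.309), or 3.17 without LFG replicate 2, and -1.11 ± 0.343 in hADMSCs-Exo against REG (edgeR, adjusted p = 0.407). Of its 75-base windows, 9.21% recurred in Cyp2a12, its abundant neighbour in the subfamily. The 250 bases before its start site are printed because it and Cyp4a31 had the smallest p-values of the 50 genes. They come from RefSeq on GRCm38.p6, chr7:26939387-26939636 on the minus strand, and the capitals mark TATAAA, which begins 28 bases before the start.
Cyp2a22: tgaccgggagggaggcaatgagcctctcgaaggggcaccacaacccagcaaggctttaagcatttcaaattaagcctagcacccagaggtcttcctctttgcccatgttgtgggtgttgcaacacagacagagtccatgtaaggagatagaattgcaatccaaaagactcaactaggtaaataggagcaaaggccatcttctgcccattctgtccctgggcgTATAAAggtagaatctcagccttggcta
On the gene strand TATAAA was found in 7.59% of 32851 such windows and in 23.8% of the 42 windows of members. The AhR core GCGTG and the nuclear receptor motifs AGGTCA and AGTTCA, searched on both strands, had no match in the Cyp2a22 window. They were found in 28.2%, 14.0% and 11.8% of all windows and in 21.4%, 21.4% and 11.9% of those of members. The promoter table held 38 of the 50 genes.

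The rest of the Cyp2a subfamily varied strongly between libraries. Cyp2a5 measured 36.7, 703 and 2058 CPM in LFG, 1095, 1068 and 995 CPM in REG and 753, 1690 and 2025 CPM in hADMSCs-Exo. LFG spanned the range of all libraries, with a 56.1-fold ratio of the highest to the lowest, and the log2 fold change in hADMSCs-Exo against REG was 0.50 ± 0.324 (edgeR, adjusted p = 0.626). Cyp2a12 was steadier, at 272 to 721 CPM in all 9 libraries.

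The genes grouped here under CAR and PXR, all of the Cyp2b and Cyp3a subfamilies, were led by Cyp3a11. It measured 4198, 5090 and 5142 CPM in LFG, 6222, 5498 and 5436 CPM in REG and 5060, 4878 and 5431 CPM in hADMSCs-Exo. REG was above both other groups without overlap, by a narrow margin over hADMSCs-Exo replicate 3. The size was small: the log2 fold change was -0.16 ± 0.161 in hADMSCs-Exo against REG (edgeR, adjusted p = 0.752) and 0.26 ± 0.284 in REG against LFG (edgeR, adjusted p = 0.741).

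Cyp3a13, a 3A enzyme of liver and intestine, measured 129, 266 and 169 CPM in LFG, 414, 320 and 285 CPM in REG and 456, 329 and 406 CPM in hADMSCs-Exo. Every library of the recovered groups was above every LFG library. Its log2 fold change was 1.07 ± 0.321 in hADMSCs-Exo against LFG (edgeR, adjusted p = 0.805) and 0.87 ± 0.324 in REG against LFG (edgeR, adjusted p = 0.407). Cyp3a59 measured 23.3, 33.2 and 33.8 CPM in LFG, 87.7, 46.1 and 37.2 CPM in REG and 33.2, 42.0 and 41.9 CPM in hADMSCs-Exo. REG was above LFG without overlap, mostly through replicate 1, with a log2 fold change of 0.94 ± 0.360 (edgeR, adjusted p = 0.413), and 13.2% of its windows recurred in Cyp3a25.

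Cyp2b10, the classic CAR target, measured 18.8, 37.0 and 2.77 CPM in LFG, 9.18, 11.97 and 11.7 CPM in REG and 2.19, 27.2 and 12.3 CPM in hADMSCs-Exo. The REG libraries were close together and both other groups spread around them. Its log2 fold change in REG against LFG was -0.82 ± 0.747 (edgeR, adjusted p = 0.692), which turned to 0.018 without LFG replicate 2. None of the 8 genes of the group was called with all 6 libraries, and 6 had a higher and 2 a lower fitted value in REG than in LFG. Of all genes 5519 of 12517 had a higher fitted value.

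Among the AhR targets, Cyp1a2 measured 350, 675 and 1628 CPM in LFG, 684, 1040 and 828 CPM in REG and 837, 811 and 917 CPM in hADMSCs-Exo. LFG replicates 1 and 3 were the lowest and the highest of all libraries, and the log2 fold change in REG against LFG was -0.05 ± 0.548 (edgeR, adjusted p = 0.980). Cyp1a1, the inducible form found in many tissues, stayed at 3.75, 2.85 and 1.97 CPM in LFG, 0.801, 1.32 and 2.07 CPM in REG and 1.01, 2.35 and 1.01 CPM in hADMSCs-Exo. The LFG libraries were mostly above the others but overlapped them, with a log2 fold change of -0.99 ± 0.515 in hADMSCs-Exo against LFG (edgeR, adjusted p = 0.808). Cyp1b1, a form found mainly outside hepatocytes, measured 3.29, 5.31 and 0.625 CPM in LFG, 1.60, 2.14 and 1.17 CPM in REG and 0.947, 1.81 and 0.693 CPM in hADMSCs-Exo. LFG replicate 3 was the lowest of the 9, as it was for the summed level of the stellate cell markers, whose part in the Cyp1b1 values was not tested, and the log2 fold change in hADMSCs-Exo against LFG was -1.44 ± 0.783 (edgeR, adjusted p = 0.816), or -0.81 without LFG replicate 2.

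In the Cyp2j group and the other Cyp2 genes no member was called with all 6 libraries, and 5 of 6 had a lower fitted value in hADMSCs-Exo than in REG. Cyp2f2, which activates naphthalene, measured 91.6, 497 and 926 CPM in LFG, 488, 849 and 666 CPM in REG and 392, 652 and 547 CPM in hADMSCs-Exo. LFG replicate 1 was well under every other library, and hADMSCs-Exo and REG overlapped, with a log2 fold change of -0.33 ± 0.247 (edgeR, adjusted p = 0.672). Cyp2g1, best known from olfactory mucosa, measured 0.169, 1.90 and 5.45 CPM in LFG, 6.53, 4.17 and 4.78 CPM in REG and 1.18, 4.70 and 2.33 CPM in hADMSCs-Exo. Of the hADMSCs-Exo libraries only replicate 2 reached the REG range, and the log2 fold change against REG was -0.92 ± 0.463 (edgeR, adjusted p = 0.546), or -1.56 without hADMSCs-Exo replicate 2. Cyp2u1, a fatty acid hydroxylase, had the widest ratio of this group: LFG replicate 3 stood at 57.5 CPM and the other 8 libraries between 0.894 and 7.91 CPM.

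Cyp4f genes encode hydroxylases of leukotrienes and long fatty acids. Cyp4f17 measured 8.13, 11.6 and 10.0 CPM in LFG, 8.44, 8.51 and 7.06 CPM in REG and 11.3, 12.8 and 12.03 CPM in hADMSCs-Exo. All hADMSCs-Exo libraries were above all REG libraries, and the log2 fold change of 0.59 ± 0.167 had the smallest p of the members in that comparison (edgeR, adjusted p = 0.407). Cyp4f18, the leukotriene-oxidising form of neutrophils, measured 7.67, 3.69 and 0.625 CPM in LFG, 0.986, 0.989 and 1.59 CPM in REG and 1.36, 1.63 and 1.26 CPM in hADMSCs-Exo. LFG replicates 1 and 2 were above all other libraries and replicate 3 below them, with a log2 fold change of -1.52 ± 0.795 in hADMSCs-Exo against LFG (edgeR, adjusted p = 0.808), which was -0.63 without LFG replicate 1.

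Cyp4b1, known mostly from lung, measured 5.22, 4.47 and 4.38 CPM in LFG, 26.6, 11.4 and 7.80 CPM in REG and 7.22, 18.01 and 4.35 CPM in hADMSCs-Exo. The LFG libraries were tight and REG lay above them without overlap, while hADMSCs-Exo spread over both. The log2 fold change was 1.72 ± 0.476 in REG against LFG (edgeR, adjusted p = 0.333) and 1.06 ± 0.526 in hADMSCs-Exo against LFG (edgeR, adjusted p = 0.806). Without REG replicate 1 the former was 1.08, and without hADMSCs-Exo replicate 2 the latter was 0.30. Cyp4f14, Cyp4f15, Cyp4f13 and Cyp4v3 were expressed in every library, and none reached an unadjusted p under 0.05 in the 3 comparisons.

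Of the P450s of vitamins and sterols, Cyp2r1, which hydroxylates vitamin D in liver, measured 11.5, 10.9 and 13.6 CPM in LFG, 18.2, 21.0 and 15.0 CPM in REG and 13.9, 16.5 and 14.7 CPM in hADMSCs-Exo. LFG was below every other library. The log2 fold change was 0.60 ± 0.215 in REG against LFG (edgeR, adjusted p = 0.394) and 0.32 ± 0.199 in hADMSCs-Exo against LFG (edgeR, adjusted p = 0.843).

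Cyp26a1, which breaks down retinoic acid, measured 1.35, 25.9 and 3.93 CPM in LFG, 7.58, 18.9 and 11.04 CPM in REG and 8.76, 23.2 and 23.8 CPM in hADMSCs-Exo. The LFG libraries held both the lowest and the highest value, and the log2 fold change in hADMSCs-Exo against REG was 0.58 ± 0.426 (edgeR, adjusted p = 0.668). Cyp39a1, an oxysterol hydroxylase, measured 52.3, 79.6 and 15.7 CPM in LFG, 50.3, 47.3 and 43.8 CPM in REG and 30.3, 49.0 and 28.6 CPM in hADMSCs-Exo. Its REG libraries were within a narrow range, which hADMSCs-Exo replicate 2 entered, and the log2 fold change was -0.39 ± 0.214 (edgeR, adjusted p = 0.569).

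Cyp17a1, the hydroxylase and lyase of androgen synthesis, was the only steroidogenic P450 above the limit on reads. It measured 67.4, 14.1 and 5.81 CPM in LFG, 41.6, 58.8 and 18.9 CPM in REG and 41.4, 26.9 and 20.4 CPM in hADMSCs-Exo, all groups overlapping, with a log2 fold change of -0.43 ± 0.399 in hADMSCs-Exo against REG (edgeR, adjusted p = 0.733). The 6 adrenal cortex markers summed to 1.17 to 4.65 CPM, and Cyp11b1 and Mc2r were at 0 in all libraries.

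Sex-biased P450s differed widely between libraries of the same group. Cyp2d9, a testosterone hydroxylase of male liver, measured 190, 421 and 1937 CPM in LFG, 144, 447 and 578 CPM in REG and 310, 603 and 702 CPM in hADMSCs-Exo. LFG replicate 3 was far above all others and REG replicate 1 the lowest, and the log2 fold change in REG against LFG was -1.13 ± 0.896 (edgeR, adjusted p = 0.649), which turned to 0.40 without LFG replicate 3. Cyp4a12a, the male arachidonic acid hydroxylase, measured 8.63, 26.2 and 352 CPM in LFG, 4.81, 77.0 and 56.1 CPM in REG and 102, 135 and 134 CPM in hADMSCs-Exo. All hADMSCs-Exo libraries were above all REG libraries, and its log2 fold change of 1.44 ± 0.723 was not called (edgeR, adjusted p = 0.543). Cyp4a12b, whose reads may be shared with it, had the same extremes, at 92.5 CPM in LFG replicate 3 and 0.493 CPM in REG replicate 1. In their own analysis the authors listed Cyp4a12a and Cyp4a12b among the genes up-regulated in hADMSCs-Exo against REG.

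Of the 6 female-biased genes, Cyp2a4, Cyp2b9 and Cyp2b13 had their highest value in REG replicate 1, and Cyp17a1, Cyp39a1 and Cyp3a44 in LFG replicate 1 or 2. Cyp2a4, a steroid hydroxylase, measured 46.5, 64.2 and 1.79 CPM in LFG, 130, 3.68 and 16.3 CPM in REG and 14.9, 11.5 and 7.49 CPM in hADMSCs-Exo. REG replicate 1 was the highest and LFG replicate 3 the lowest, and the log2 fold change in hADMSCs-Exo against REG was -2.16 ± 1.04 (edgeR, adjusted p = 0.531), which turned to 0.18 without REG replicate 1. Cyp2b9 measured 256 CPM in REG replicate 1 and 4.47 CPM in LFG replicate 3, with 29.4 to 76.9 CPM in the other 7 libraries. Cyp2b13 stood at 18.7 CPM in REG replicate 1, at 6.66 and 2.35 CPM in LFG replicates 1 and 2, at 1.66 CPM in hADMSCs-Exo replicate 1 and at 0.159 CPM or less elsewhere. Summed over the 3 male-biased genes, the level ran from 149 CPM (REG replicate 1) to 2382 CPM (LFG replicate 3), and over the 6 female-biased genes from 27.9 CPM (LFG replicate 3) to 497 CPM (REG replicate 1), the latter sum coming mostly from Cyp2b9 and Cyp2a4. Ddx3y, of the Y-linked genes named above, lay between 36.0 and 67.5 CPM in all 9 libraries.

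**Figure D4:**
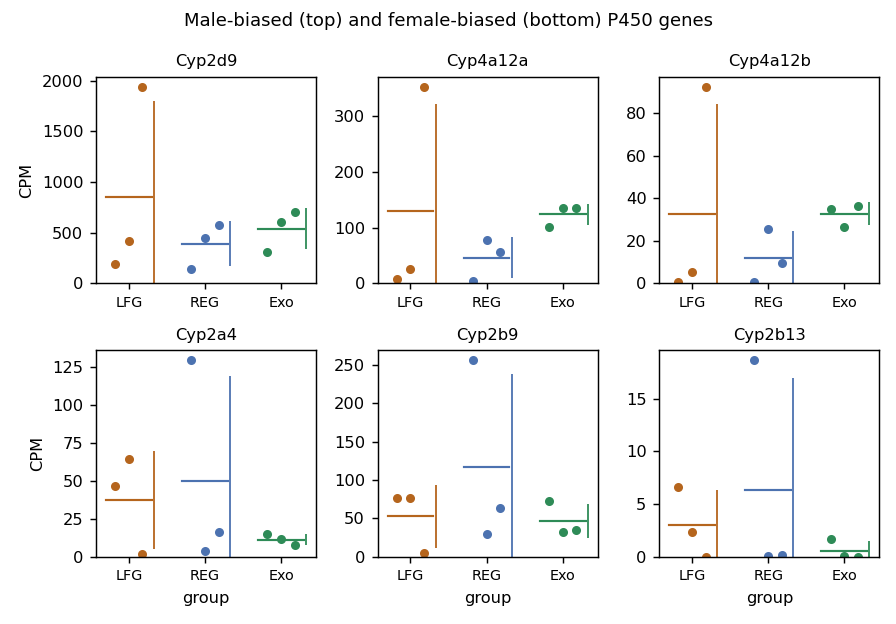
CPM of 3 male-biased (top) and 3 female-biased (bottom) P450 genes in each library, LFG, REG and hADMSCs-Exo (Exo) on the x axis, replicates 1 to 3 from left to right, the line being the mean and the bar the SD ending at 0. LFG 3 holds the highest male-biased values (Cyp2d9 at 1937 CPM), and REG 1 the highest female-biased ones (Cyp2b9 at 256 CPM).

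Without LFG replicate 3, which was singled out after its values were seen, more members separated from LFG, as did more genes at large. In REG against LFG, 8 of 49 members were then called higher, a larger share than the 3.81% of all genes, and 4 lower (6.94%), and 27 reached an unadjusted p under 0.05 (37.3% of all genes). Those higher were Cyp46a1, Cyp2a22, Cyp2d10, Cyp2j5, Cyp4f15, Cyp4f13, Cyp2d40 and Cyp3a25, by 1.06 to 2.36 on the log2 scale. Those lower were Cyp4a31 (-3.08 ± 0.545), Cyp4f18 (-2.21 ± 0.430), Cyp26b1, another retinoic acid hydroxylase (-2.11 ± 0.555), and Cyp2b10 (-1.30 ± 0.290). Their edgeR adjusted p-values were 0.0173, 0.0210, 0.0419 and 0.0290, in that order. The members' median log2 fold change was then 0.72, against -0.005 for all genes.

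In hADMSCs-Exo against LFG, 3 of 49 members were called higher without LFG replicate 3 (1.47% of all genes), 3 were lower (4.5%), and 25 reached an unadjusted p under 0.05 (28.5%). Cyp4a12b (3.55 ± 0.735), Cyp4a12a (2.85 ± 0.460) and Cyp4f13 (1.23 ± 0.258) were higher, with edgeR adjusted p-values of 0.0371, 0.0247 and 0.0381. With all libraries their log2 fold changes were 0.02, -0.05 and 0.27, and LFG replicate 3 held the highest of the 9 values of each. Cyp4a31 (-3.46 ± 0.343), Cyp2a4 (-2.28 ± 0.289) and Cyp4f18 (-1.99 ± 0.402) were lower, with adjusted p-values of 0.0100, 0.0185 and 0.0348. The members' median was 0.64, against 0.004 for all genes, and it was -0.12 with LFG replicate 1 left out instead. Leaving out any other library left 0 members called in each comparison. Markers of other cells moved too without LFG replicate 3. Of 9 stellate cell and myofibroblast markers 6 were called lower in hADMSCs-Exo and 3 in REG, and of 7 cholangiocyte markers 2 and 3. Of all genes 4.5% and 6.94% were called lower in these comparisons. The macrophage marker Adgre1 was called lower in hADMSCs-Exo, and the hepatocyte marker Fgb higher in REG. Their part in the P450 values was not tested.

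The other named genes given above against LFG were not called without LFG replicate 3. In hADMSCs-Exo against LFG the log2 fold change was then -1.88 ± 0.479 for Cyp1b1 (edgeR, adjusted p = 0.0594), which had been -1.44, and -1.17 for Cyp1a1, 1.02 for Cyp3a13, 1.03 for Cyp4b1 and 0.44 for Cyp2r1 (edgeR, adjusted p from 0.106 to 0.263). Cyp1b1 and Cyp1a1 were then below LFG without overlap. In REG against LFG it was 1.69 for Cyp4b1, 1.51 for Cyp4a14, 1.06 for Cyp3a59, 0.83 for Cyp3a13, 0.78 for Cyp1a2, 0.73 for Cyp2r1, 0.40 for Cyp2d9 and 0.35 for Cyp3a11 (edgeR, adjusted p up to 0.638). Cyp1a2 and Cyp2d9 had been below 0 with all libraries.

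**Figure D5:**
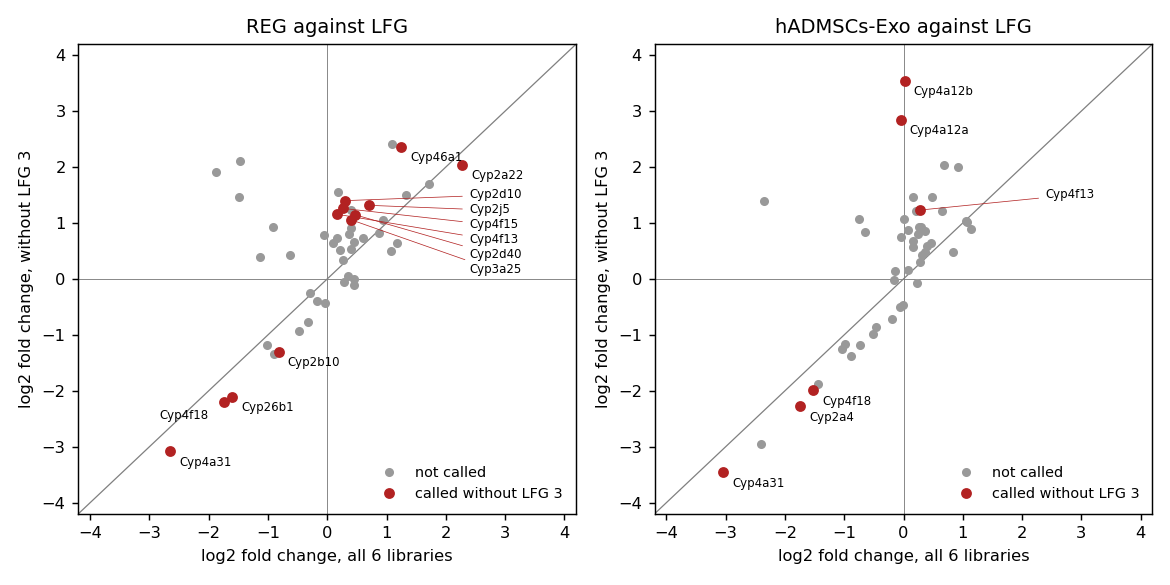
Log2 fold change of each P450 gene with all 6 libraries (x axis) and without LFG 3 (y axis) for REG against LFG (left) and hADMSCs-Exo against LFG (right), the diagonal marking equal values and red marking genes called without LFG 3. The 12 and 6 called genes include Cyp4a31 in both panels, at -3.08 and -3.46, and Cyp4a12a and Cyp4a12b leave the zero line in the right panel.

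The proteins that serve P450 enzymes were counted beside them. Of 15 genes of electron transfer and haem synthesis, none was called by edgeR or reached an unadjusted p under 0.05 in either comparison with LFG. Without LFG replicate 3 none was called either, and 5 in hADMSCs-Exo and 8 in REG were higher at that limit, as were 12.8% and 18.2% of all genes. The smallest p in hADMSCs-Exo against LFG belonged to Por, the oxidoreductase that feeds P450 enzymes, at 455, 685 and 605 CPM in LFG, 805, 591 and 734 CPM in REG and 693, 1052 and 875 CPM in hADMSCs-Exo. The hADMSCs-Exo libraries were all above LFG, with a log2 fold change of 0.58 ± 0.283 (edgeR, adjusted p = 0.806), and 0.63 without LFG replicate 3. In REG against LFG it belonged to Cyb5b, a cytochrome b5 of the outer mitochondrial membrane, at 224, 348 and 329 CPM in LFG, 375, 509 and 422 CPM in REG and 345, 383 and 364 CPM in hADMSCs-Exo. REG was above LFG without overlap, with a log2 fold change of 0.55 ± 0.257 (edgeR, adjusted p = 0.476), and 0.65 without LFG replicate 3.

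Of 18 transcription factors that act on P450 genes none was called with all libraries. At an unadjusted p under 0.05, 4 were higher in hADMSCs-Exo against REG (5.34% of all genes) and 1 in hADMSCs-Exo against LFG (2.3%). In REG against LFG 2 were higher (4.62%) and 3 lower (6.7%). The smallest p belonged to Ahr, the receptor behind the Cyp1 genes, at 52.7, 94.2 and 70.7 CPM in LFG, 36.9, 31.6 and 32.8 CPM in REG and 53.9, 62.5 and 77.6 CPM in hADMSCs-Exo. REG was below both other groups without overlap, with a log2 fold change of 0.94 ± 0.166 in hADMSCs-Exo against REG (edgeR, adjusted p = 0.358) and -1.09 ± 0.243 in REG against LFG (edgeR, adjusted p = 0.277). Cux2, a repressor of male-biased genes in female liver, measured 0.632, 1.90 and 0.357 CPM in LFG, 81.1, 19.3 and 1.01 CPM in REG and 57.2, 18.3 and 4.98 CPM in hADMSCs-Exo. LFG was below hADMSCs-Exo throughout, REG replicate 3 lay inside the LFG range, and the log2 fold change in hADMSCs-Exo against LFG was 4.75 ± 1.04 (edgeR, adjusted p = 0.805), and 4.45 without LFG replicate 3. Without that library 2 factors were called higher in hADMSCs-Exo (1.47% of all genes). They were Nr1i3, which encodes CAR (1.28, edgeR, adjusted p = 0.0441), and Nr1h4, the bile acid receptor (1.12, adjusted p = 0.0348). In REG, Nr1h4 (1.18, edgeR, adjusted p = 0.0159) and the hepatocyte factor Cebpa (1.47, adjusted p = 0.0324) were then called higher (3.81% of all genes). Ahr was called lower (-1.07, edgeR, adjusted p = 0.0291), beside 6.94% of all genes.

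Markers of other cells were also compared in the same fits. In hADMSCs-Exo against REG, 6 of 9 stellate cell and myofibroblast markers tested were lower at an unadjusted p under 0.05 (4.69% of all genes). Col3a1 led them (-1.73 on the log2 scale, edgeR, adjusted p = 0.358). In hADMSCs-Exo against LFG 5 of 9 were lower (3.68% of all genes), and in REG against LFG 0 of 9 (6.7%). Tagln was at 0 in 5 of the 9 libraries. In hADMSCs-Exo against REG, 1 of 9 hepatocyte and 1 of 9 lymphocyte markers were higher at that limit (5.34% of all genes). There 1 of 6 cholangiocyte markers was lower (4.69%), and none of 10 macrophage and 7 sinusoidal endothelial markers passed the limit. In hADMSCs-Exo against LFG, 2 lymphocyte markers were higher (2.3% of all genes) and none of the other 4 lists had a gene past it. In REG against LFG, 1 hepatocyte, 1 endothelial and 1 lymphocyte marker were higher (4.62% of all genes), and no macrophage or cholangiocyte marker passed it. Their part in the P450 values was not tested.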

How the data were processed

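Liver RNA-seq of 9 libraries was analysed. The authors deposited raw counts per gene and, beside them, FPKM, which is the count scaled by gene length and library total. Per the labels' processing notes cutadapt 1.15, HISAT2 2.0.5, HTSeq 0.9.1, DESeq 1.30.0 and GRCm38 were involved, in roles not given there, and the use of strand is not given in the sources used here. Counts were tested with edgeR 4.0.16 (R 4.3.3; quasi-likelihood test, two-sided, TMM, filterByExpr, Benjamini-Hochberg over all genes tested), with only the 6 libraries compared in each fit. The filter dropped Cyp2d11 from all fits, Cyp2d12 from those with LFG, and Cyp26c1 and Cyp2b13 from hADMSCs-Exo against REG. These fits were also run on counts simulated from the real libraries, the outcome of which is not given here. Alternatives were RLE size factors, DESeq2 1.42.0, a filter of at least 1 count, all 9 libraries in one fit, a replicate block, and each library left out. Log2 CPM used a prior count of 2. Windows, motifs and plots used Python 3.11.15, pandas 2.3.3 and matplotlib 3.10.9, and TATAAA was added after the sequence was seen. Named genes were those called, the 6 with the smallest p in each comparison and 12 anchors of the roles, each anchor given in full in the comparison with its smallest p. The result of 1 gene that is no member is not reported here. Members and lists were chosen with earlier results of these data known. The groups share replicate numbers: deviations from group means of same-numbered libraries correlated by 0.101, 0.308 and 0.179 for hADMSCs-Exo and LFG, all above 0.1, which is the only ground for treating these as pairs.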

Additional observations from a re-analysis of the deposited data

How the results depend on the processing

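For the 28 named fold changes, 291 of 308 alternatives kept direction and side of the threshold, 9 passed it and 8 reversed. Reversals were Cyp1a2 in REG against LFG without the low-count filter (0.005) and with the replicate block (0.23), and, on leaving out libraries, Cyp1a2 (-0.43 to 0.78), Cyp2b10 (-1.30 to 0.018) and Cyp2d9 (-1.60 to 0.40) in REG against LFG and Cyp2a4 (-2.71 to 0.18) in hADMSCs-Exo against REG, the last from REG replicate 1. DESeq2 called 1 member in hADMSCs-Exo against LFG and 3 in REG against LFG, the cause of which was not tested. Members at an unadjusted p under 0.05 in hADMSCs-Exo against REG numbered 1 with all 9 libraries in one fit, 8 with the replicate block and 3 to 9 with a library left out (9 without REG replicate 1, 8 without REG replicate 2 or 3 or hADMSCs-Exo replicate 1, and 6 without hADMSCs-Exo replicate 2). In hADMSCs-Exo against LFG they numbered 4 with the replicate block and 3 to 25 with a library left out (4 without hADMSCs-Exo replicate 2, 5 without LFG replicate 2), and in REG against LFG 4 and 3 to 27, the highest in both being without LFG replicate 3. With a library left out, members called ranged from 0 to 6 and from 0 to 12 in these comparisons, and the members' median log2 fold change from -0.12 to 0.64 and from 0.001 to 0.72, LFG replicates 1 and 3 giving the ends. Same-numbered libraries correlated by 0.157, 0.0064 and 0.037 for hADMSCs-Exo and REG and by 0.414, -0.200 and 0.306 for REG and LFG, which share only a number, and the replicate block changed no call of a member. With 3 libraries a group, a difference within the spread of LFG was not detectable, and members near 1 CPM rest on few reads.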
